A study of Mus musculus with 4 samples.

Results

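The 10 immediate early genes *Fos*, *Fosb*, *Jun*, *Junb*, *Egr1*, *Egr2*, *Atf3*, *Ier2*, *Btg2* and *Dusp1* were examined in the RNA-seq read counts of E13.5 mouse retinas. They were chosen by name, as genes known to respond to stress and to dissection, and all 10 were found among the 24062 genes of the count table. Wildtype retinas and *Nrf1 f/f;Six3-Cre* retinas (Nrf1-CKO in the labels), both from a mixed C57BL/6 and 129 background, were compared with 2 libraries of each genotype. In the mutant, Six3-Cre deletes exon 4 of the floxed *Nrf1* gene in retinal progenitor cells starting in the central retina, so peripheral cells may keep the gene. Retinas of several littermates were pooled for RNA. Whether the replicate libraries came from separate pools is not given in the sources used here, so p-values measure only the spread between libraries, which may be technical. Whether the wildtype embryos carried Six3-Cre is not given in the sources used here.

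Immediate early genes are switched on within minutes of a stimulus without the need for new protein, mostly through MAP kinases acting on serum response factor and its partners and on factors that bind cyclic AMP response elements. Fos and Jun proteins pair through leucine zippers to form the transcription factor AP-1, the Egr genes encode zinc finger transcription factors, and Dusp1 is a phosphatase that switches MAP kinases off again. Because cutting, warming or dissociating a tissue also induces them, they are widely used as signs of handling, and the interval between dissection and lysis of these retinas is not given in the sources used here.

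Depth was similar, with 74577660 to 85933945 reads counted on genes per library. Progenitor genes were abundant in both genotypes. *Pax6* had 646 ± 19.3 CPM in wildtype retinas (SD, n = 2) and 656 ± 17.6 CPM in the mutant, where CPM are reads per 1000000 reads on genes, scaled with the TMM factors of edgeR. *Nrf1* itself was read 9052 and 7789 times in wildtype and 8594 and 8284 times in mutant libraries, a log2 fold change of -0.03 (edgeR adjusted p = 0.794). Loss of 1 exon can leave such a count almost as it was, so this gene could not check the labels. Transcripts of other tissues were higher in the mutant libraries. The summed level of 12 lens genes was 188 and 464 CPM in the wildtype and 8968 and 3693 CPM in the mutant libraries, and that of 14 macrophage and microglia genes was 129 and 119 against 333 and 402 CPM.

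The promoters of 5 of the genes are shown because they differ in the response measured here. *Fos*, *Atf3* and *Jun* were higher in mutant retinas by very different amounts. *Dusp1* and *Btg2*, which were not called, are those with a complete cyclic AMP response element among the 8 members with a window. The uncalled *Ier2* and the called *Egr1* had no window, and a link between element and response was not tested. Each window covers 250 bases before and 50 bases from the transcription start (RefSeq, GRCm38.p6), read 5′ to 3′ on the strand of the gene. Capitals mark the half-site TGACG on either strand (CGTCA when it lies on the opposite strand), the complete element TGACGTCA, which contains a half-site on each strand, and TGACATCA, a variant of the AP-1 site.
Fos, chr12:85473640-85473939, plus strand: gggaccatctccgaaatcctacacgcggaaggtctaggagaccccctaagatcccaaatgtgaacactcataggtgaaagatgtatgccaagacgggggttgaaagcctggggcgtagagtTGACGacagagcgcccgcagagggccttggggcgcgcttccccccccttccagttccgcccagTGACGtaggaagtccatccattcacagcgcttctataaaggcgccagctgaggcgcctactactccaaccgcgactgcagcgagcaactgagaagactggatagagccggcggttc
Atf3, chr1:191183284-191183583, minus strand: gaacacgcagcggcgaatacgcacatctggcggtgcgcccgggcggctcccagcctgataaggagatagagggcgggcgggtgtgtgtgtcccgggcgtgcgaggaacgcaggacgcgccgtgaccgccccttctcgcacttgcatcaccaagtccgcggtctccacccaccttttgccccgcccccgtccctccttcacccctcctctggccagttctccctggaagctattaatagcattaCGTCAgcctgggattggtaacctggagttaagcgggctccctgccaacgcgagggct
Jun, chr4:95052173-95052472, minus strand: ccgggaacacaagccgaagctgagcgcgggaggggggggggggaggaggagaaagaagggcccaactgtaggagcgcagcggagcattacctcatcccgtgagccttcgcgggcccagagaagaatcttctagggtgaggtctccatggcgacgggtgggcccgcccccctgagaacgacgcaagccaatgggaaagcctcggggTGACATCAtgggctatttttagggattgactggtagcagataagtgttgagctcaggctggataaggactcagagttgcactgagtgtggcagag
Dusp1, chr17:26508423-26508722, minus strand: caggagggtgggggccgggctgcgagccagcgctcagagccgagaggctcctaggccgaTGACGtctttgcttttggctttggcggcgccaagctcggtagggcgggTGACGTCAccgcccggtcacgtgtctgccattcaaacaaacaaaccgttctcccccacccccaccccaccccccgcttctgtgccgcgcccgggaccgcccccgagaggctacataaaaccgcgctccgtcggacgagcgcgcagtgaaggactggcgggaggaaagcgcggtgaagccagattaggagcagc
Btg2, chr1:134079106-134079405, minus strand: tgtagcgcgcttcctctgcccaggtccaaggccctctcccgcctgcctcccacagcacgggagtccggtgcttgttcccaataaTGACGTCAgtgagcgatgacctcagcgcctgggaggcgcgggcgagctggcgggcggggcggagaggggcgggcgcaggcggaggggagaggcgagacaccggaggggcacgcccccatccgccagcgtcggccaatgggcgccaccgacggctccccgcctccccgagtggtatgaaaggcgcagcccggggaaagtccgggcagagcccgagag

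Windows were at hand for 8 of the 10 genes, all but *Egr1* and *Ier2*, with several starts for *Egr2*. The half-site TGACG lay in at least 1 window of 7 of the 8, and in those of 23.0% of all 27025 genes with a window. In *Fos* it occurred 129 and 66 bases before the start. The complete element TGACGTCA was found in *Dusp1*, 143 bases before the start, and in *Btg2*, 166 bases before it, compared with 2.03% of all genes. TGACATCA was found in *Jun*, 45 bases before the start (4.18% of all genes). *Egr2* was the only 1 of the 8 with a CArG box, the site of serum response factor, which 1.81% of all genes held. None of the 8 held the AP-1 sites TGACTCA or TGAGTCA (5.95% of all genes) or GCATGCGC, a part of the NRF1 recognition sequence (3.05%). These are matches of letters in a short window and say nothing of sites outside it.

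Between the genotypes, 7 of the 10 genes were called higher in the mutant and none lower. Calls required a 1.4-fold difference with an adjusted p not above 0.2 in edgeR's quasi-likelihood test, the thresholds used in the study. Over all 15762 tested genes, 12.8% were called higher and 8.04% lower. The genes called higher were *Fos*, *Atf3*, *Egr1*, *Fosb*, *Egr2*, *Junb* and *Jun*, all of which encode transcription factors, and their folds ranged from 24.9 to 1.401. *Ier2*, *Btg2* and *Dusp1* were not called. None of the 10 was lower at an unadjusted p under 0.05, by edgeR or by DESeq2 (0 in each). The median log2 fold change over the 10 genes was 1.64, beside 0.00073 over all tested genes. On the authors' normalized log2 values, the differences were smaller, with a median of 0.38 over the 10 genes and 1.38 for *Fos*, and 4 of the 10 were called. In a bulk sample, more cells that express a gene and more RNA per cell cannot be told apart.

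**Figure D1:**
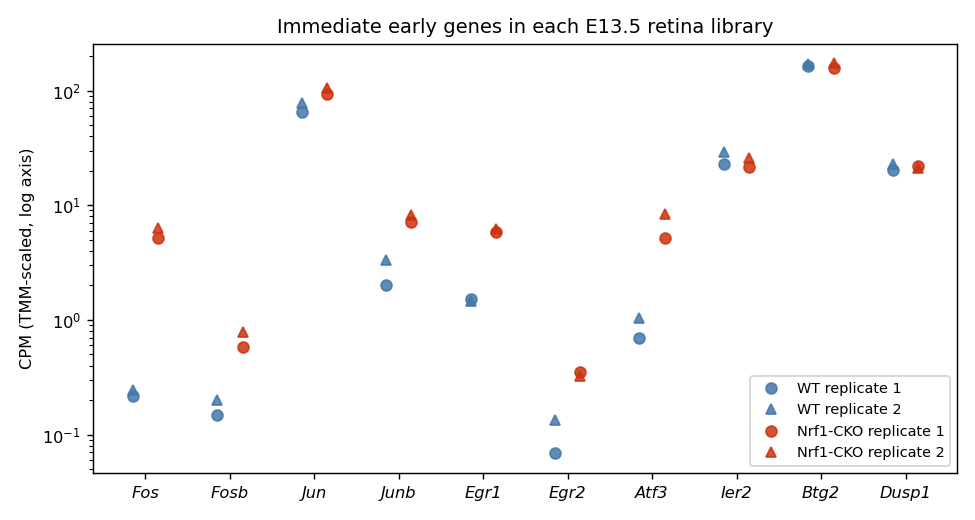
Level of each gene in each library, in TMM-scaled CPM on a log axis, with wildtype libraries in blue, Nrf1-CKO libraries in red, circles for replicate 1 and triangles for replicate 2. For *Fos* the mutant libraries sit at 5.14 and 6.33 CPM, far above the wildtype libraries at 0.217 and 0.243, whereas the genotypes overlap for *Ier2*, *Btg2* and *Dusp1*.

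*Fos*, the founding subunit of AP-1, had the largest change. It lies on chromosome 12 of GRCm38 from 85473890 to 85477273, with 4 exons. The wildtype libraries held 19 and 18 reads of it, and the mutant libraries 427 and 524. Both wildtype libraries were close to absence and both mutant libraries were far above them. The log2 fold change was 4.64 (edgeR adjusted p = 7.02e-05, 95% interval 3.96 to 5.31, standard error 0.30), and *Fos* ranked 43 of the 15762 tested genes by fold change. The lower mutant library was still 21.2 times as high as the higher wildtype library.

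*Fosb*, which encodes a second Fos protein, followed at a much lower level. It lies on chromosome 7 from 19302696 to 19310051. Wildtype libraries held 13 and 15 reads of it, and mutant libraries 48 and 65. The log2 fold change of 1.96 had a wide 95% interval, from 0.57 to 3.34, as the low counts allow (adjusted p = 0.0493 from edgeR). Without mutant replicate 2 the gene was no longer called, at a log2 fold change of 1.71 (adjusted p = 0.289).

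*Jun* and *Junb* encode the partners of Fos, and both are genes of a single exon. *Jun*, on chromosome 4 from 95049034 to 95052222, was read 5682 and 5725 times in wildtype and 7736 and 8762 times in mutant libraries. The mutant libraries were higher by a small margin, since 64.9 and 77.2 CPM stood against 93.1 and 106. Its fold of 1.401 lay at the threshold itself, with a log2 fold change of 0.49 (95% interval 0.25 to 0.72, adjusted p = 0.0101 from edgeR). With scaling by library size only it was 0.47, and *Jun* was then not called. It was not called without wildtype replicate 1 (0.37) or without mutant replicate 2 (0.39) either.

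*Junb*, on chromosome 8 from 84974484 to 84978718, was read 176 and 246 times in wildtype and 595 and 683 times in mutant libraries. Its log2 fold change was 1.54 (edgeR adjusted p = 0.00246, standard error 0.25). The wildtype libraries differed by 1.65-fold from each other, less than the 2.16-fold step from the higher of them to the lower mutant library. Both Jun genes overlap a transcript of the opposite strand in the annotation, and whether the counting used strand is not given in the sources used here. *Junos*, which is not in the count table, shares 232 bases with the exon of *Jun*, and *Prdx2* shares 173 bases with *Junb*, none of them in the principal transcript of *Junb*.

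*Egr1* and *Egr2* encode zinc finger factors that bind GC-rich promoters, and *Egr2* is best known for its role in hindbrain and Schwann cells. *Egr1*, on chromosome 18 from 34859823 to 34864984, was read 132 and 109 times in wildtype and 483 and 516 times in mutant libraries. The replicates of both genotypes lay close together, at 1.51 and 1.47 CPM in the wildtype and 5.81 and 6.24 CPM in the mutant. The log2 fold change was 2.02 (edgeR adjusted p = 0.000294, standard error 0.21).

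*Egr2*, on chromosome 10 from 67535475 to 67542188, was the scarcest of the 10, read 6 and 10 times in wildtype and 29 and 27 times in mutant libraries. The libraries did not overlap, but a log2 fold change of 1.73 came with a 95% interval of 0.03 to 3.44 (adjusted p = 0.137 from edgeR), and the call was lost with DESeq2 (adjusted p = 0.237), without a filter on low counts (adjusted p = 0.269) and whenever 1 library was left out (adjusted p from 0.218 to 0.439).

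*Atf3* encodes a stress-induced factor of the ATF and CREB family that pairs with Jun and is also induced by Atf4 in the integrated stress response. On chromosome 1 from 191170296 to 191218039, it was read 61 and 77 times in wildtype and 428 and 688 times in mutant libraries. This was the second largest fold change of the 10 genes, with a log2 fold change of 2.96 (edgeR adjusted p = 0.000318, standard error 0.31). The mutant libraries differed by 1.61-fold, and the lower of them was 4.96 times as high as the higher wildtype library.

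*Ier2*, *Btg2* and *Dusp1* were expressed at substantial levels in both genotypes. *Ier2* (chromosome 8, 84661331 to 84662852), a gene of 1 exon that encodes a nuclear protein, had 23.1 and 29.2 CPM in the wildtype and 21.5 and 25.9 CPM in the mutant libraries. *Btg2* (chromosome 1, 134075170 to 134079120), an antiproliferative gene and p53 target that marks progenitors about to divide into neurons, had 165 and 172 CPM in the wildtype and 158 and 172 CPM in the mutant libraries. For *Dusp1* (chromosome 17, 26505590 to 26562128) the levels were 20.3 and 22.9 CPM in the wildtype and 21.9 and 21.0 CPM in the mutant libraries. In all 3 genes the genotypes overlapped.

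The 95% intervals of the log2 fold change ran from -0.45 to 0.18 for *Ier2*, from -0.21 to 0.15 for *Btg2* and from -0.25 to 0.23 for *Dusp1*. All 3 intervals lie within 1.4-fold in either direction. The edgeR adjusted p was 0.534, 0.841 and 0.955 in the same order. Over all tested genes, the libraries of the genotypes did not overlap for 62.5%, and this held for 7 of the 10 immediate early genes.

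**Figure D2:**
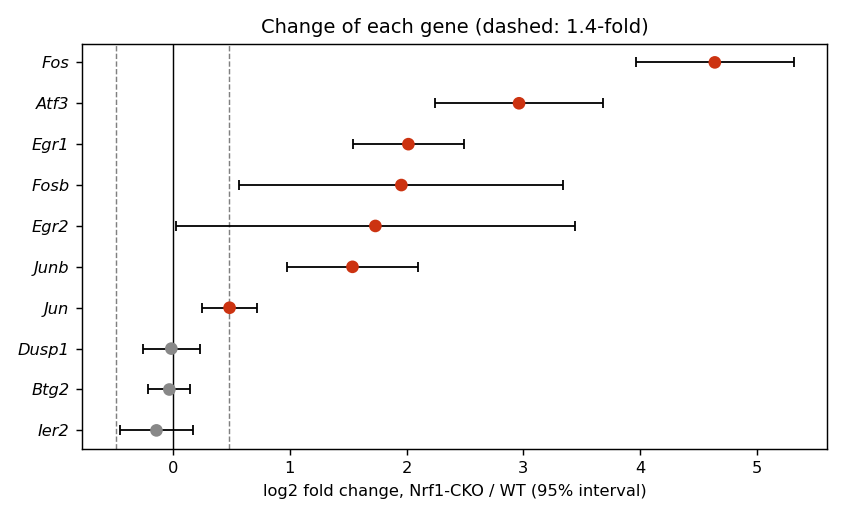
Log2 fold change of each gene, mutant over wildtype, with its 95% interval from the edgeR fit (2 libraries per genotype), in red for genes called higher and in grey for genes not called. Dashed lines mark 1.4-fold. The interval of *Fos* runs from 3.96 to 5.31, that of *Egr2* nearly reaches 0, and *Jun* lies on the 1.4-fold line.

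Levels differed widely among the genes. Per kb of the principal transcript, *Btg2* was the highest in wildtype retinas with a mean of 61.4 CPM per kb, followed by *Jun* with 22.3, *Ier2* with 17.2 and *Dusp1* with 10.9. *Junb* came to 1.47, *Atf3* to 0.437, *Egr1* to 0.332, *Fos* to 0.109, *Fosb* to 0.0464 and *Egr2* to 0.0343 CPM per kb. Neighbours in this order did not overlap between their wildtype libraries, except *Fosb* and *Egr2*. Thus the 3 genes that were not called were 3 of the 4 with the highest level in wildtype. The remaining one, *Jun*, had the smallest fold of the called genes, although its mean rose from 71.0 to 99.5 CPM. A fold is taken relative to the wildtype level, so the order by level and the order by fold are not independent. In mutant retinas the order differed only in that *Fos*, with 2.72 CPM per kb, stood above *Egr1*, with 1.34. There the neighbours *Junb* and *Atf3*, *Atf3* and *Fos*, overlapped between their libraries.

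Within the Fos family, the level per kb summed over *Fos*, *Fosb*, *Fosl1* and *Fosl2* was 0.366 and 0.444 CPM per kb in the wildtype and 3.72 and 4.61 CPM per kb in the mutant libraries. *Fos* made up 28.1% and 25.9% of that sum in wildtype libraries, compared with 65.5% and 65.1% in mutant libraries, so that *Fosl2* was the main Fos gene in wildtype and *Fos* in mutant retinas. The Jun family was far more abundant and changed less in proportion. Its sum over *Jun*, *Junb* and *Jund* was 101 and 159 CPM per kb in the wildtype and 139 and 164 CPM per kb in the mutant libraries, with overlap between the genotypes. *Jund*, a Jun gene that is expressed without stimulation in many cells, held 76.2% to 83.7% of it in each library.

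**Figure D3:**
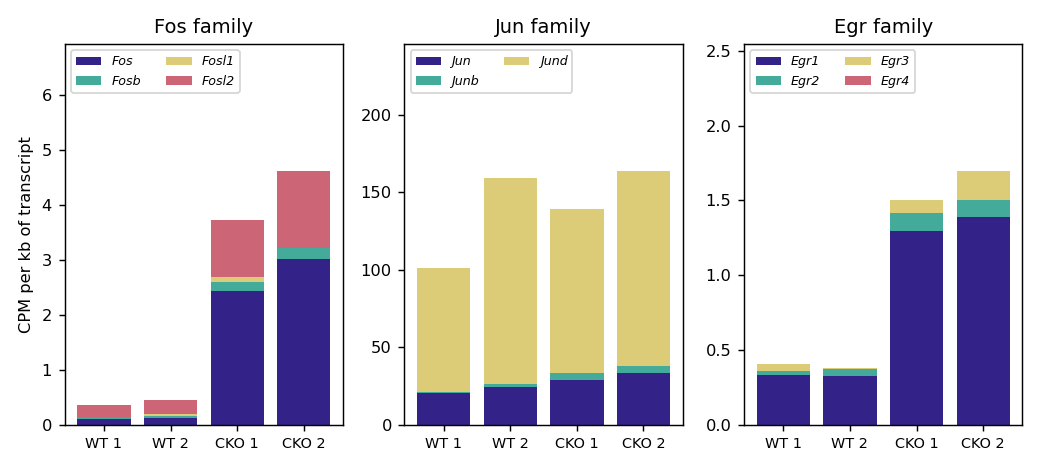
Level of the Fos, Jun and Egr genes in each library as stacked bars, in CPM per kb of transcript, with a separate axis for each family. The Fos sum rises from at most 0.444 in wildtype to at least 3.72 in mutant libraries, and the Jun sum, mostly *Jund*, overlaps between the genotypes.

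Replicates of the same genotype were then compared, since these genes can differ with the handling of a pool. With 1 library against 1 there is no test. In wildtype retinas, 3 of the 10 genes differed by at least 1.4-fold between the replicates, *Egr2* (1.97-fold, from 6 and 10 reads), *Junb* (1.65-fold) and *Atf3* (1.49-fold), compared with 14.8% of all tested genes. In mutant retinas only *Atf3* did, by 1.61-fold, compared with 14.2% of all tested genes. The median size of the log2 difference between replicates was 0.29 for the 10 genes and 0.13 for all tested genes in wildtype, and 0.20 and 0.14 in the mutant.

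These differences had a common side. Replicate 1 was lower than replicate 2 for 9 of the 10 genes in wildtype, all but *Egr1*, and for 8 of the 10 in the mutant, all but *Egr2* and *Dusp1*. Over all tested genes this held for 50.2% in wildtype and 48.1% in the mutant. It held in both genotypes for 7 of the 10 genes and for 25.5% of all tested genes. Whether the replicate numbers pair the libraries is not given in the sources used here. Over all tested genes, the deviations from the genotype means did not correlate between the genotypes (r = -0.0042 across genes, which are not independent). A correlation over all genes cannot show whether a small set of genes shared a replicate difference.

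For *Fos*, *Fosb*, *Egr1* and *Atf3* the log2 difference between replicates was between -0.69 and 0.04, smaller in size than the difference between genotypes.

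**Figure D4:**
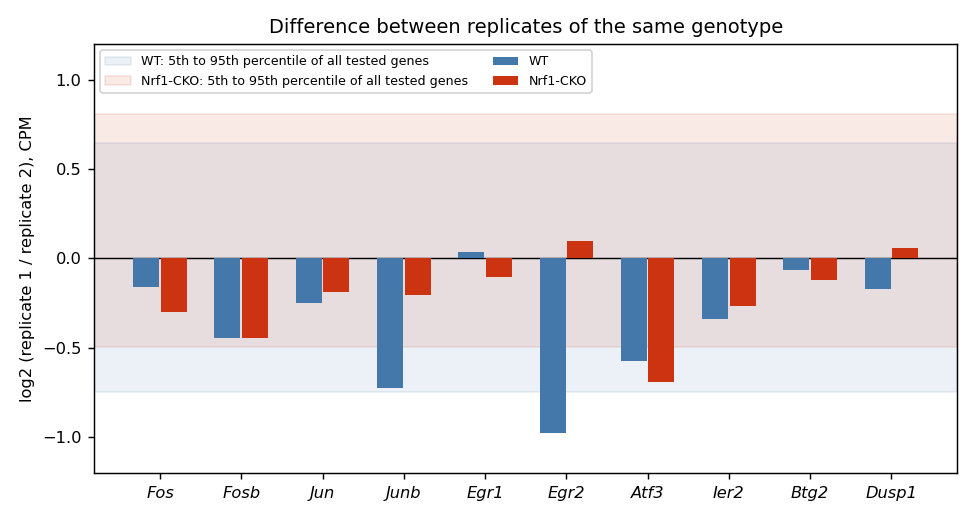
Log2 ratio of replicate 1 to replicate 2 for each gene, in wildtype (blue) and Nrf1-CKO (red) retinas, with shaded bands from the 5th to the 95th percentile of all tested genes, which run from -0.74 to 0.65 in wildtype and from -0.49 to 0.81 in the mutant. Most bars point down, and only *Egr2* in wildtype and *Atf3* in the mutant leave their band.

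Other immediate early genes were read from 4 further lists with 71 genes, of which 67 were tested. In these, 24 genes were called higher and 2 lower, against the 12.8% and 8.04% of all tested genes, and the median log2 fold change was 0.37. Among 10 tested relatives of AP-1, *Fosl2*, *Jdp2* and *Mafk* were called higher and none lower. *Fosl2*, a Fos gene with slower kinetics, had 1.46 and 1.66 CPM in the wildtype and 6.80 and 9.16 CPM in the mutant libraries, a log2 fold change of 2.36 (adjusted p = 0.00021 from edgeR). *Jund* had a log2 fold change of 0.13 and overlapped between the genotypes. *Fosl1* and *Batf2* did not pass the filter on low counts.

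Of 14 tested transcription factors outside AP-1, 8 were called higher and none lower, with a median log2 fold change of 0.64. *Csrnp1*, *Myc* and *Klf4* rose most among those with a mean of at least 1 CPM, with log2 fold changes of 1.15, 0.80 and 0.77. *Nab2*, a corepressor that binds Egr proteins and is induced by them, was called with a log2 fold change of 0.71. *Nr4a1*, an orphan nuclear receptor induced by activity and by stress, had 2.59 and 2.12 CPM in the wildtype and 3.24 and 3.72 CPM in the mutant libraries, a log2 fold change of 0.56 (adjusted p = 0.136 from edgeR). *Egr4* did not pass the filter.

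Of 27 tested effectors, 12 were called higher and 1 lower. *Gadd45b*, a stress sensor upstream of p38 and JNK, and *Cyr61*, a matrix protein induced through serum response factor and YAP, had log2 fold changes of 2.18 and 2.01. *Plk3*, which encodes a stress-responsive kinase, was the gene called lower, with a log2 fold change of -0.50 (adjusted p = 0.00411 from edgeR). Other immediate early genes of this list did not pass, among them *Ier5* with 0.09, *Socs3* with 0.02 and *Btg1*, the close relative of *Btg2*, with 0.05.

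For genes that restrain MAP kinases, the counts of calls were too small to be told from the shares over all tested genes. Of 16 tested, which include the phosphatases *Dusp4*, *Dusp5* and *Dusp6* and the Sprouty and Spred inhibitors, 1 was called higher and 1 lower, beside 12.8% and 8.04% of all tested genes, and the median log2 fold change was 0.0084. *Dusp4*, a nuclear phosphatase induced by ERK, was lower in the mutant, at 21.74 ± 0.711 CPM against 41.8 ± 4.38 CPM in wildtype (SD, n = 2), and its log2 fold change was -0.94 (edgeR adjusted p = 0.000339). *Dusp2*, named here after its values were seen, was called higher from a mean of 0.353 CPM, with a log2 fold change of 1.25 (adjusted p = 0.115). *Dusp6*, a common readout of ERK signalling, had a log2 fold change of -0.26.

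Among 22 upstream regulators, 1 was called higher and 2 lower, beside 12.8% and 8.04% of all tested genes. Counts this small do not set the list apart from those shares. *Elk3*, a partner of serum response factor, had a log2 fold change of 0.63, and the JNK genes *Mapk10* and *Mapk8* had -0.84 and -0.52. *Srf* itself had 59.8 and 53.9 CPM in the wildtype and 70.3 and 73.0 CPM in the mutant libraries, a log2 fold change of 0.33 that stayed under 1.4-fold (adjusted p = 0.0191 from edgeR).

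**Figure D5:**
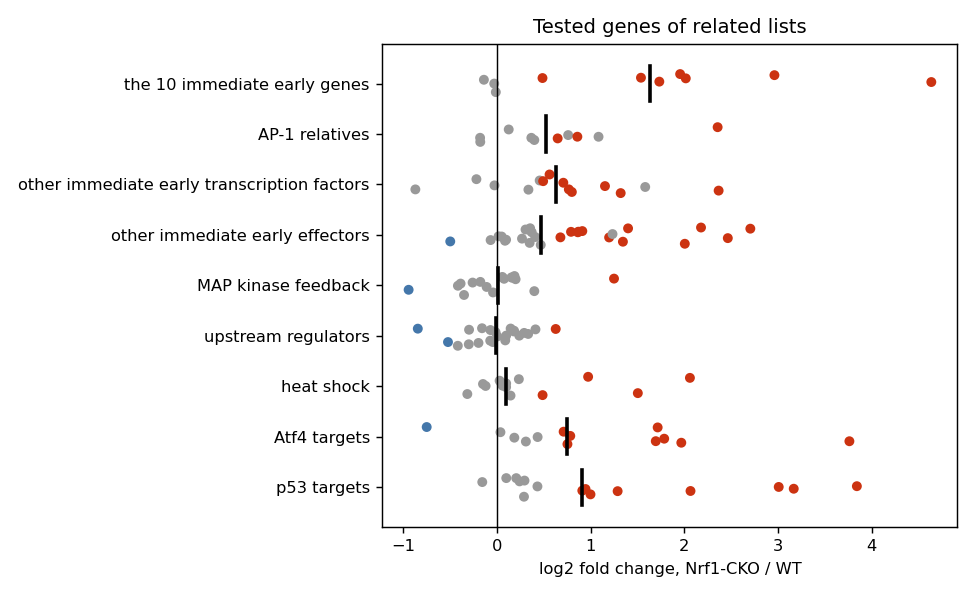
Log2 fold change of every tested gene of the 10 immediate early genes and of 8 related lists, with red points for genes called higher, blue for genes called lower and grey for genes not called. Black bars mark medians, which are 1.64 for the 10 genes, 0.0084 for MAP kinase feedback and -0.0047 for upstream regulators.

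Heat shock genes, which respond to handling and to misfolded protein, were divided. Of 14 tested, 4 were called higher and none lower, beside 12.8% and 8.04% of all tested genes. Their median log2 fold change was 0.10. The inducible *Hspa1a* had 3.19 and 3.55 CPM in the wildtype and 8.23 and 10.9 CPM in the mutant libraries, a log2 fold change of 1.504 (edgeR adjusted p = 0.0007). That of its near-identical neighbour *Hspa1b* was 0.97, and reads shared by the 2 genes make both values uncertain. *Hspb1* and *Bag3* had log2 fold changes of 2.06 and 0.49, *Hspb1* being named after its values were seen, and *Dnajb1*, *Hsph1* and *Hspd1* had 0.03, 0.15 and 0.10.

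Lists for the pathways that share *Atf3* and *Btg2* were higher in part. Of 13 tested Atf4 targets, 8 were called higher and 1 lower, beside 12.8% and 8.04% of all tested genes, with a median of 0.75. *Chac1*, which degrades glutathione, *Trib3*, a pseudokinase, and *Slc7a11*, the cystine transporter, had log2 fold changes of 1.97, 1.79 and 1.72, and *Vldlr* had -0.75. Of 15 p53 targets, 8 were called higher and none lower, with a median of 0.91. *Pmaip1*, *Eda2r* and *Cdkn1a* had log2 fold changes of 3.84, 3.17 and 3.01, whereas *Btg2*, a target of the same factor, had -0.03.

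Markers of other cell types that express immediate early genes also differed between the genotypes, in both mutant libraries. The shares over all tested genes were 12.8% called higher and 8.04% called lower. Of 14 macrophage and microglia genes, 13 were called higher and none lower, led among those with a mean of at least 1 CPM by *Trem2*, *C1qa* and *C1qb* with log2 fold changes of 2.42, 2.19 and 2.13. Of 13 endothelial and pericyte genes, 10 were called higher, led by *Tek*, *Cspg4* and *Tie1* with log2 fold changes of 1.96, 1.73 and 1.26, and *Kdr*, a receptor of VEGF, was called lower with -0.55. Their sum was 327 to 330 CPM in the wildtype and 395 to 399 CPM in the mutant libraries. *Kdr* alone held 200 and 211 CPM of it in the wildtype and 144 and 137 CPM in the mutant libraries. This sum therefore leans on 1 gene that moved the other way. All 12 lens genes, 7 of 12 mesenchyme genes, 6 of 8 tested pigment epithelium genes and 3 of 7 tested erythroid genes were called higher, with none called lower in these 4 lists. The largest log2 fold changes were those of *Mip*, *Lim2* and *Crybb3* in lens (5.005, 4.91 and 4.58) and of *Pdgfra*, *Postn* and *Col3a1* in mesenchyme (1.93, 1.01 and 0.99). In pigment epithelium they were those of *Tyrp1*, *Pmel* and *Tyr* (1.28, 1.17 and 1.05). Among the erythroid genes, *Slc4a1* and *Alas2* had log2 fold changes of 0.61 and 0.60. In the order lens, mesenchyme, pigment epithelium and erythroid cells, the summed levels were 188 to 464, 195 to 280, 169 to 233 and 570 to 671 CPM in the wildtype and 3693 to 8968, 368 to 435, 422 to 449 and 739 to 742 CPM in the mutant libraries. Every tested marker of these lists was above 0 in each library, and the part of these cells in the change of the immediate early genes was not tested.

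Between the genotypes, the lens and macrophage sums were higher in both mutant libraries, as were the 7 called genes. Between the mutant libraries, 6 of the 7 called genes, all but *Egr2*, were higher in replicate 2. The macrophage sum (333 and 402 CPM in replicates 1 and 2), the pigment epithelium sum (422 and 449 CPM) and the endothelial sum (395 and 399 CPM) were also higher in replicate 2. The lens sum (8968 and 3693 CPM), the mesenchyme sum (435 and 368 CPM) and the erythroid sum (742 and 739 CPM) were higher in replicate 1. Over all tested genes, replicate 1 was the lower for 48.1% in the mutant and 50.2% in wildtype. Between the wildtype libraries, the called genes other than *Egr1* were also higher in replicate 2. So were the lens sum (188 and 464 CPM) and the erythroid sum (570 and 671 CPM). The macrophage (129 and 119 CPM), pigment epithelium (233 and 169 CPM), endothelial (330 and 327 CPM) and mesenchyme (280 and 195 CPM) sums were higher in replicate 1. These comparisons set 1 library against 1 and were not tested. Of 11 RGC genes, 9 were called lower, led by *Sncg*, *Nefl* and *Pou4f1* with log2 fold changes of -2.44, -1.95 and -1.84, and 1 higher, *Thy1*, which had a mean under 1 CPM and is named after its values were seen. Of 11 progenitor genes, *Ccnd1* and *Fgf15* were called lower, with log2 fold changes of -0.88 and -0.70, and none higher. Over all tested genes, 8.04% were called lower and 12.8% higher.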

How the data were processed

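The authors aligned reads of 4 libraries to mm10 with TopHat (version 2.7.2 in the submitters' processing notes) and counted them per gene with HTSeq. The deposited tables hold whole-number counts that were not normalized and, separately, log2 values. The submitters' notes also list DESeq and limma, and whether either made the log2 values is not given in the sources used here. The 5 summary rows of HTSeq, 74.0% to 75.0% of all entries and mostly alignments that were not unique, stayed out of library sizes and tests. Both headers hold extra tabs, so their 4 names were read in order for the 4 value columns.

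Genes were filtered with filterByExpr (minimum count 10), scaled with TMM and tested by quasi-likelihood in edgeR 4.0.16 (R 4.3.3), with Benjamini-Hochberg adjustment over 15762 genes. Standard errors come from the fold change and its F statistic. The script was tested on simulated data. Levels per kb use the length of the principal GENCODE transcript (GRCm38). The 10 genes, the gene lists and the tests were chosen with earlier results of these data known. All 10 genes are named, and of each other list the called genes with the largest fold change, at most 3 per direction with a mean of at least 1 CPM. Some genes that this rule names are not reported here. Members cited beyond these illustrate genes that were not called or a named function. The alternatives were DESeq2 1.42.0, other scalings, filters and thresholds, a replicate block, limma 3.58.1 on the authors' log2 values, and each library left out in turn. With 2 libraries a genotype, precision is limited. The study's Cuffdiff analysis was not repeated.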

Additional observations from a re-analysis of the deposited data

How the results depend on the processing

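*Fos*, *Atf3*, *Egr1* and *Junb* were called higher under every alternative run (4 of the 10 genes). *Jun*, *Fosb* and *Egr2* kept their direction, but each lost the call under some alternatives. With no minimum fold, 3211 genes were called higher and 3076 lower over the whole table, and 37 and 8 in the other immediate early lists. On the authors' normalized values these numbers were 945 and 723, and 12 and 1, and 4 of the 10 genes were called. There *Fos*, *Atf3*, *Egr1* and *Junb* kept the call at smaller log2 differences, 1.38, 1.16, 0.86 and 0.78 against 4.64, 2.96, 2.02 and 1.54. *Fosb*, *Egr2* and *Jun* had 0.31, 0.21 and 0.46 and were not called, and the median over the 10 genes was 0.38. The cause was not tested. Under upper-quartile scaling, 1 gene of the other lists was called lower. When single libraries were left out, 4 to 6 of the 10 genes were called higher, fewest without mutant replicate 2, and none lower. The other immediate early lists then had 21 to 27 genes called higher and 1 to 2 lower, and over all genes there were 1703 to 1856 higher and 1071 to 1402 lower. The median over the 10 genes then lay between 1.27 and 1.97.

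Upper-quartile scaling moved the median of all tested genes from 0.0007 to 0.0403, and *Btg2* (0.0112) and *Dusp1* (0.0281), which were not called, moved with it to values above 0. With libraries left out in turn, *Btg2* lay between -0.093 and 0.0327, *Dusp1* between -0.092 and 0.0804 and *Ier2* between -0.294 and 0.0428. None of these was called. The replicate block left 7 of the 10 genes called, with 1970 genes higher and 1256 lower over the whole table. Since the numbers share no stated origin and the deviations did not correlate (r = -0.0042), no pairing was assumed. The block changed no call among the 10 genes. *Egr2* has no value under the filter of at least 10 counts in every library, which it did not pass.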

Other observations

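Further immediate early genes were called higher at means under 1 CPM, below the level set for naming, and are given here after their values were seen. *Plaur*, the receptor of urokinase and an AP-1 target, had 0.126 and 0.135 CPM in the wildtype and 0.867 and 0.846 CPM in the mutant libraries, and its log2 fold change was 2.705 (edgeR adjusted p = 0.0098, standard error 0.58). *Egr3*, another Egr gene, had 0.183 and 0.0270 CPM in the wildtype and 0.349 and 0.774 CPM in the mutant libraries, and its log2 fold change was 2.37 (edgeR adjusted p = 0.0888, standard error 0.88). *Npas4*, which neurons induce through calcium entry, had a log2 fold change of 1.58 and was not called (adjusted p = 0.245 from edgeR).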
